A study of Mus musculus with 3 samples.

Results

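Fc gamma receptors bind the constant part of IgG in immune complexes, and they pass the signal on through a small set of adaptors, kinases and phosphatases. The genes described here are 9 mouse genes named by symbol: the receptors Fcgr1, Fcgr2b and Fcgr3, the adaptors Fcer1g and Tyrobp, the kinases Syk and Lyn, and the phosphatases Ptpn6 and Inpp5d. They were selected by the gene symbol of each array row, brought to the current mouse symbol, with an exact 0 read as a missing value. Of the 9 genes, 8 had a row, 11 of the 16281 rows in all, and 5 genes (Fcgr1, Fcgr2b, Fcgr3, Fcer1g and Tyrobp) had a ratio on all arrays and were tested among 8449 features. Syk and Inpp5d had ratios on 2 arrays, Ptpn6 was listed at 0 on every array, and Lyn had no row under its symbol.

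Kidney RNA of BALB/c mice with anti-GBM glomerulonephritis, a disease in which antibody attacks the basement membrane of the glomerulus, was hybridised to 2-colour arrays. Each of the 3 arrays held RNA of a different nephritic mouse, taken at day 11 after the antibody was injected (Cy5), beside a pool of kidney RNA from 5 normal BALB/c mice (Cy3). Dyes were not swapped, the same pool was on each array, and the sources used here give no age, sex, antibody dose, allele or further agent. The values are deposited log ratios whose base is not stated: a value of 1 is a 2-fold change in base 2, 2.72-fold in the natural base and 10-fold in base 10. A positive value is read as more RNA in the nephritic mouse; the dyes make this reading likely, but nothing states it for the deposited numbers.

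Fcgr1 and Fcgr3 are activating receptors. They carry no signalling motif of their own and depend on Fcer1g, the common Fc receptor gamma chain, whose tyrosine motif is phosphorylated by Src family kinases such as Lyn and then recruits Syk. Fcgr2b, the inhibitory receptor, carries an inhibitory motif that recruits the lipid phosphatase encoded by Inpp5d, and Ptpn6 encodes a tyrosine phosphatase that dampens the same kinases. Tyrobp is a second adaptor of the gamma chain type that serves other myeloid receptors such as Trem2. In anti-GBM nephritis, IgG deposited along the glomerular basement membrane is a ligand for Fc receptors on leukocytes that enter the kidney.

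Promoter sequences are shown because Fcgr1, Fcgr3 and Fcer1g had high ratios and the inhibitory Fcgr2b did not. RefSeq promoter entries of mouse assembly GRCm38.p6 were found for 7 of the 9 genes, and the 250 bases before the transcription start of 4 of them are given 5′ to 3′ along the gene's strand, which is the minus strand for all of these 4 genes. Capitals mark GAGGAA on either strand, a core of sites bound by the myeloid factor PU.1. The windows are chr3:96293970-96294219 for Fcgr1, chr1:171059395-171059644 for the second of 2 Fcgr3 starts that lie 9 bases apart, chr1:171234350-171234599 for Fcer1g and chr1:170976072-170976321 for Fcgr2b.
Fcgr1: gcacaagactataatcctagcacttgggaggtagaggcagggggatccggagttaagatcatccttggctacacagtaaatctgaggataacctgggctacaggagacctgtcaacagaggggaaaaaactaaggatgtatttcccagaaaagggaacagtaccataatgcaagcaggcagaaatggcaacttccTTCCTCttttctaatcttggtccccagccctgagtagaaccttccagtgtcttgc
Fcgr3: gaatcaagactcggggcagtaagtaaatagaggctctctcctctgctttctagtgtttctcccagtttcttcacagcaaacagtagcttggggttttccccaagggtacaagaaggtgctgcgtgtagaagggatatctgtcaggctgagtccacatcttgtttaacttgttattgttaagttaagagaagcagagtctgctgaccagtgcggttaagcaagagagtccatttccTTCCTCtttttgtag
Fcer1g: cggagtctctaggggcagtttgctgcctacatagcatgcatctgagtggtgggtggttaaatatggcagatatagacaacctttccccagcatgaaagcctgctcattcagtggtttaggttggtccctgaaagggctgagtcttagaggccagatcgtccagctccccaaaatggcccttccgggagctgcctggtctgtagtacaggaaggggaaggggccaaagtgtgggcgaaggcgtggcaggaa
Fcgr2b: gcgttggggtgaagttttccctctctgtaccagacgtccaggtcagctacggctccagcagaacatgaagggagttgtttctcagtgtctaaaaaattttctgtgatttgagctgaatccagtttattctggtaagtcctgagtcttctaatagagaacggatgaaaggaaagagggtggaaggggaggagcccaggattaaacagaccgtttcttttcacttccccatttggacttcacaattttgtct

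GAGGAA was present once in the Fcgr1 window, 55 to 50 bases before the start, and once in the Fcgr3 window, 15 to 10 bases before the start, in both cases on the opposite strand. Around it both genes held the same 14 bases, TTCCTTCCTCTTTT, their longest shared run, 59 to 46 bases before the Fcgr1 start and 19 to 6 before this Fcgr3 start. The run was looked for because these genes share it. It was in 3 of 32851 windows of the same length (both strands). These include the Fcgr1 and Fcgr3 windows from which it was taken. The count is therefore no test of a link between the genes, and longest shared runs of other gene pairs were not looked at. The window of the first Fcgr3 start held GAGGAA but not the whole run. The Fcer1g and Fcgr2b windows did not hold GAGGAA, and among the other genes it was in the Inpp5d window and in 1 of 2 Syk windows but not in that of Ptpn6. Of all windows, 23.3% held GAGGAA, so the pattern is common, and a match describes letters and no binding.

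Both activating receptors were higher in nephritic kidney. Fcgr3, the low-affinity activating receptor, had log ratios of 1.68 in mouse 1, 1.04 in mouse 2 and 1.05 in mouse 3. Mouse 1 lay above the other two, which were nearly equal, and all values were far above 0. The mean was 1.26 ± 0.366 (SD, n = 3; limma, Benjamini-Hochberg adjusted p = 0.000488, where under 0.05 counts as passing), and 110 of the 8449 tested features, 1.30%, had a higher mean. Fcgr1, the high-affinity receptor that also binds single IgG molecules, had log ratios of 1.31, 0.88 and 0.92 in mice 1, 2 and 3. Here too mouse 1 was the highest. The mean was 1.03 ± 0.237 (SD, n = 3; adjusted p = 0.000349), with 2.17% of features above it.

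The calls of these receptors depend on how exact 0 is read. With exact 0 kept as a ratio, Fcgr1 and Fcgr3 stood at 1.05 and 1.28, as they did without centring, and no longer passed (adjusted p = 0.0647 and 0.0827), although their own rows hold no 0. That setting tested 13241 features, and the cause of the lost calls was not tested. Over 11 alternatives the adjusted p ran from 6.18e-06 to 0.0907 for Fcgr1 and from 3.62e-06 to 0.107 for Fcgr3, and the log ratio from 0.90 to 1.11 and from 1.05 to 1.37.

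**Figure D1:**
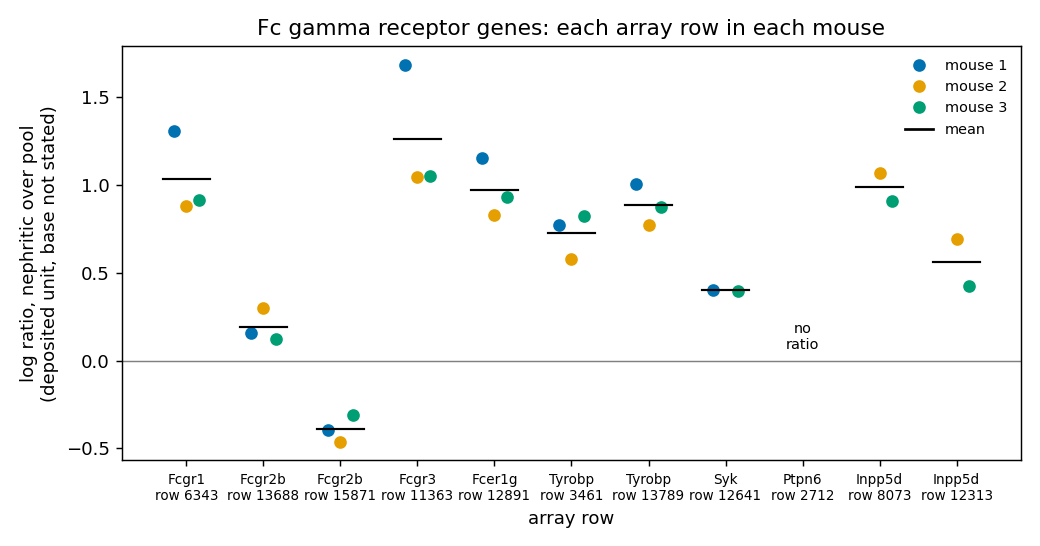
Log ratio (y axis, deposited unit of unstated base, nephritic mouse over control pool) of each of the 11 array rows of the genes (x axis), with 1 point per mouse and a bar at the mean of the mice measured. Rows of Fcgr1, Fcgr3, Fcer1g and Tyrobp lie above 0.5 in every mouse, the rows of Fcgr2b lie on opposite sides of 0, Syk and Inpp5d have 2 points a row and Ptpn6 has none.

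The inhibitory receptor Fcgr2b gave no single answer, because its 2 rows went opposite ways. Row 13688 had log ratios of 0.16, 0.30 and 0.12 in mice 1, 2 and 3, all slightly above 0. Row 15871 had -0.39, -0.46 and -0.31, all below 0. No value of one row overlapped the other, and the gap was 0.58 ± 0.166 (SD, n = 3). When rows were tested singly, row 15871 passed as lower at -0.39 (adjusted p = 0.00441) and row 13688, at 0.19, did not pass (adjusted p = 0.0738). Averaged, the gene stood at -0.10 ± 0.0192 (SD, n = 3) with a 95% interval from -0.25 to 0.06, and it did not pass (adjusted p = 0.267). The small SD of the average hides the gap between the rows, and the average is therefore a poor summary of Fcgr2b.

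Such a gap between rows was in the wider part of the range on these arrays. Of 1047 genes with exactly 2 rows measured in all mice, 108, or 10.3%, had rows at least as far apart as those of Fcgr2b, the median gap was 0.17, and the rows of 315 genes, 30.1%, had means of opposite sign. Tyrobp, the other tested member with 2 rows, had a gap of 0.16. Which transcript or sequence each Fcgr2b row detects is not stated in these sources, so whether the rows read different transcripts, or a row also reads a related gene such as Fcgr3, was not tested.

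**Figure D2:**
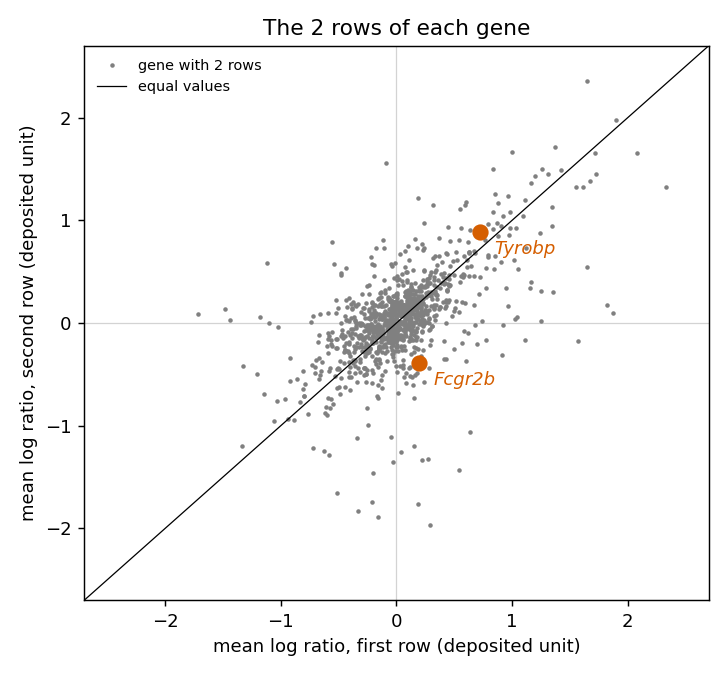
Mean log ratio over 3 mice of the first row (x axis) and the second row (y axis) of each of the 1047 genes with 2 rows measured on all arrays, in the deposited unit, with a line of equal values. Tyrobp lies near the line with rows at 0.72 and 0.88, and Fcgr2b lies below the line with rows at 0.19 and -0.39.

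Both adaptors were higher. Fcer1g, the gamma chain that Fcgr1 and Fcgr3 need at the cell surface, had log ratios of 1.15, 0.83 and 0.93 in mice 1, 2 and 3. The mean was 0.97 ± 0.167 (SD, n = 3; adjusted p = 0.000239), close to the mean of Fcgr1. Tyrobp had 0.89, 0.67 and 0.85 in the 3 mice as the average of its rows, all clearly above 0 and closer together than those of Fcgr1 and Fcgr3. The mean was 0.80 ± 0.113 (SD, n = 3; adjusted p = 0.000304), and both rows rose when tested singly (row 3461 at 0.72, adjusted p = 0.000348, and row 13789 at 0.88, adjusted p = 0.000122). Fcer1g and Tyrobp kept their calls with exact 0 kept as a ratio. Over the same 11 alternatives the adjusted p reached 0.0782 for Fcer1g and 0.0736 for Tyrobp, in each case with the unmoderated test.

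Thus 4 of the 5 tested genes were higher and 0 were lower in nephritic kidney, where 20.8% of all tested features were higher, 22.3% lower and 43.1% called in either direction. The count of 4 held without any 1 of the mice and fell to 2 with exact 0 kept and to 0 with the unmoderated test, in which no feature of the table passed (3060 features had an unadjusted p under 0.05, against 4361 with limma). The test sets 3 ratios against 0, so variation among the control mice does not enter it. As the dyes were not swapped, a dye effect would be in every ratio and cannot be told apart from the disease. In RNA of whole kidney, more cells of a type and more RNA per cell cannot be told apart.

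The signalling enzymes were measured less completely. Syk, the tyrosine kinase that docks on the phosphorylated adaptors, had log ratios of 0.40 in mouse 1 and 0.40 in mouse 3 and no ratio in mouse 2. Both values were positive and below every value of Fcgr1, Fcgr3, Fcer1g and Tyrobp. Inpp5d, the lipid phosphatase recruited by Fcgr2b, had no ratio in mouse 1. Its row 8073 stood at 1.07 in mouse 2 and 0.91 in mouse 3, and its row 12313 at 0.69 and 0.43, so the rows shared a direction and differed in size. When ratios on 2 arrays sufficed, Syk was called higher at 0.40 (limma adjusted p = 0.0166, 95% interval 0.18 to 0.62) and Inpp5d at 0.77 (adjusted p = 0.00223, interval 0.53 to 1.02). With the missing ratios entered as 0 they stood at 0.28 and 0.53 and did not pass (adjusted p = 0.332 and 0.336). Ptpn6 and Lyn gave no value, which says nothing about their level.

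In order of the mean log ratio the tested genes ran Fcgr3, Fcgr1, Fcer1g, Tyrobp and Fcgr2b. These are differences of ratios between genes, not differences of level. Fcgr3 exceeded Fcgr1 in every mouse, by 0.23 ± 0.131 (SD, n = 3). Fcgr1 and Fcer1g did not differ beyond their spread, at 0.06 ± 0.0861, with Fcer1g the higher of the pair in mouse 3. Fcer1g exceeded Tyrobp by 0.17 ± 0.0925, in 3 of 3 mice. The wide step came last, with Tyrobp 0.90 ± 0.129 above Fcgr2b.

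The activating and the inhibitory receptor were compared directly. The log ratio of Fcgr3 exceeded that of Fcgr2b by 1.80, 1.13 and 1.15 in mice 1, 2 and 3, a mean of 1.36 ± 0.385 (SD, n = 3). It was larger in each mouse whichever Fcgr2b row was used, by 1.07 ± 0.408 over row 13688 and by 1.65 ± 0.378 over row 15871. An exact sign-flip permutation test (two-sided) over 3 mice cannot give a p below 0.25, and this pair and the pair Fcer1g and Tyrobp both gave p = 0.25 (adjusted p = 0.25 over the 2 pairs measured of 4 chosen). Syk and Lyn, and Ptpn6 and Inpp5d, could not be compared.

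Macrophages carry all 3 receptors, and macrophage markers were higher in the same kidneys. Of 15 markers tested (of 20 listed), 13 rose (5 with exact 0 kept and 12 with rows tested singly) and 0 fell. The median was 0.92 (0.55 with exact 0 kept), and the list means were 0.81, 0.82 and 0.95 in mice 1, 2 and 3. The 2 rows of the marker Aif1 disagreed, at 1.56 and -0.09. The lysozyme Lyz2 rose by 1.69 ± 0.0986, the mannose receptor Mrc1 by 1.51 ± 0.13 and the complement subunit C1qa by 1.22 ± 0.115 (SD, n = 3). Among these 15, 3 had a higher mean than Fcgr3, 7 than Fcgr1, 7 than Fcer1g and 8 than Tyrobp. The average of Fcgr2b was below all 15, but its row 13688, at 0.19, was above the marker Cx3cr1 at -0.04. Of the markers, Cd14 was listed at 0 on all arrays. The part of macrophage number in the ratios of the receptors was not tested.

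The mice were ordered differently for the members that rose and for these markers. Mouse 1 had the highest value for all 4 genes that rose, though not for row 3461 of Tyrobp, which was highest in mouse 3 (means of the 4 genes 1.26, 0.86 and 0.94 in mice 1, 2 and 3). It had the highest value for 3 of the 13 macrophage markers that rose, of which 8 were highest in mouse 3. Of all 1755 features called higher, 40.3% were highest in mouse 1. Among tested markers of other leukocytes, mouse 1 was highest for 10 of 13 neutrophil and 5 of 9 T and NK cell markers. These counts describe 3 animals and were not tested.

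**Figure D3:**
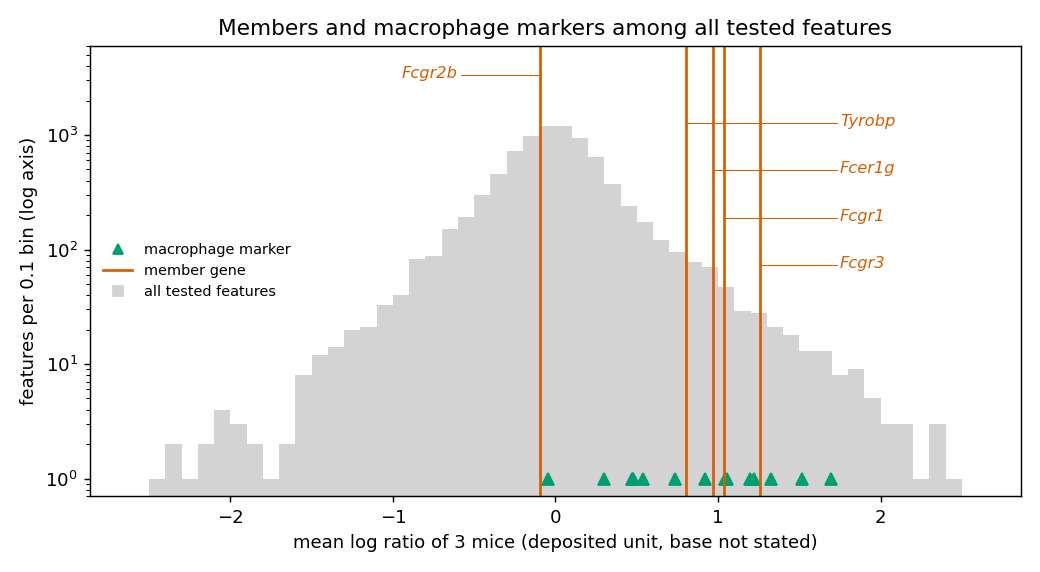
Histogram of the mean log ratio over 3 mice (x axis, deposited unit) of all 8449 tested features (y axis, features per bin, log axis), with a vertical line at each tested gene and a triangle for each of the 15 macrophage markers tested. Fcgr3, Fcgr1, Fcer1g and Tyrobp fall among the macrophage markers in the upper tail, and Fcgr2b falls near the middle at -0.10.

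Markers of other leukocytes moved less uniformly, and over all tested features 20.8% rose and 22.3% fell. Of 13 neutrophil markers 4 rose (30.8%) and 4 fell, with a median of 0.03 and list means of 0.25, 0.18 and 0.17 in mice 1, 2 and 3. The calprotectin subunit S100a9 stood at 1.48 and the iron-binding Lcn2, which injured tubules also make, at 1.22, and S100a9 moved to 0.97 with exact 0 kept. S100a8 was at 0.55 as an average of rows at 0.06, not passing, and 1.04, and it did not pass with exact 0 kept (adjusted p = 0.113). The 4 that fell, named here after their values were seen, were the surface marker Ly6g at -0.51, the chemokine receptor Cxcr2 at -0.31, and the granule proteins Ltf and Ngp, both at -0.23; 0 fell with exact 0 kept. The number that fell was 2 without mouse 2 and 1 without mouse 3. Of 9 T and NK cell markers 4 rose and 0 fell (list means 0.46, 0.23 and 0.32; 2 rose without mouse 3), with Cd8a at 0.99, Thy1 at 0.82 and Cd4 at 0.24. Cd4 no longer passed without mouse 2 (adjusted p = 0.0975) or mouse 3 (adjusted p = 0.168), and with exact 0 kept Cd4 stood at 0.084 and Cd8a at 0.53. A further row of Cd8a had 0.14 in mouse 3 and no other ratio. Cd8b1 was at -0.05 in the row tested, and a further row had 0.31 and 0.73 in mice 1 and 3. The markers Cd3e, Klrb1c and Nkg7 were listed at 0 on all arrays.

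Mast cells and basophils also use Fcer1g, in the IgE receptor. Both other chains of that receptor, Fcer1a and Ms4a2, were listed at 0 on all arrays, as were the mast cell proteases Mcpt4 and Tpsab1. Of 4 mast cell and basophil markers tested 1 rose, the growth factor receptor Kit at 0.44, and 2 fell, the histamine-forming Hdc at -0.92 and the chymase Cma1 at -0.34 (list means -0.23, -0.14 and -0.09 in mice 1, 2 and 3; 2 rose without mouse 1, 1 fell without mouse 2 or mouse 3, and none of these calls held with exact 0 kept). B cells, which carry Fcgr2b as their only Fc gamma receptor, were covered by 1 tested marker, Jchain at 0.19 (0.32, 0.16 and 0.10 in the 3 mice), which did not pass (adjusted p = 0.0737), and Cd79a was listed at 0. The platelet list had 2 tested genes (list means 1.18, 0.91 and 0.91), the chemokine Pf4, which rose by 2.19 ± 0.343 (SD, n = 3) and stood at 1.10 with exact 0 kept, and the integrin Itga2b at -0.19, which did not pass. Row 17513 of Itga2b passed singly as lower at -0.29 (limma adjusted p = 0.0136), and its other row stood at -0.10. A row of the platelet marker Ppbp had -1.07 and -0.88 in mice 1 and 3, and its other row had 0.41 in mouse 2. The list median was 0.997, and it was -0.08 when ratios on 2 arrays sufficed. The part of these cells in the ratios of the receptors was not tested.

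Of 7 kidney tissue markers 5 fell and 1 rose (list means -0.53, -0.45 and -0.33; 2 rose without mouse 1 and 0 without mouse 3). The phosphate transporter Slc34a1 was at -1.22, the salt transporter Slc12a1 at -0.87 and the water channel Aqp1 at -0.47. With exact 0 kept Slc34a1 stood at -0.71, Slc12a1 did not pass (adjusted p = 0.0816) and 2 markers fell. Umod and Kap, abundant in normal kidney, were listed at 0 on all arrays. An exact 0 was therefore not read as a low level here, and the cause of these zeros was not tested.

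Other genes of the Fc receptor pathway were taken from 8 lists. Of their 98 tested genes 42 rose, 42.9%, and 9 fell, 9.18%, beside 20.8% and 22.3% of all tested features, and their median was 0.17 beside -0.01 over all features. The lists were drawn up with earlier results of these data known, and no test compares them with other genes. The count that fell was 14 without mouse 1, and with exact 0 kept 16 rose and 2 fell.

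Of 5 other Fc receptors tested, 0 rose and 2 fell: Fcamr, which binds IgA and IgM, at -0.68 ± 0.0857 (SD, n = 3; adjusted p = 0.000478), and Pigr, which carries IgA across epithelia, at -0.31 ± 0.0911, which no longer passed without mouse 3 (adjusted p = 0.127) or with exact 0 kept (adjusted p = 0.0876). Fcgrt, the neonatal receptor that recycles IgG, was at 0.17 and Fcer2a, the low-affinity IgE receptor, at -0.26, and neither passed (adjusted p = 0.08 and 0.0988). With array weights Fcgrt passed as higher, at 0.22 (adjusted p = 0.00575). The list median was -0.26, and it was -0.10 without mouse 2 and -0.016 with exact 0 kept.

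Among kinases that act with Syk 12.5% rose, beside 20.8% of all tested features. Of 8 Src family and related kinases 1 rose, the myeloid kinase Fgr, with 0.46, 0.62 and 0.54 in the 3 mice and a mean of 0.54 ± 0.082 (SD, n = 3; adjusted p = 0.00119). Zap70, the T cell relative of Syk, was at 0.25 and just missed the threshold (adjusted p = 0.0504), and it passed without mouse 1 (0.33, adjusted p = 0.00673), where the list had 2 rises. The inhibitory kinase Csk at 0.15 and the Src family kinase Fyn at 0.14 did not pass. Without mouse 2 the list had 1 fall.

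Adaptors that act after Syk rose in 9 of 18 and fell in 2. Fyb, an adaptor of leukocyte adhesion, had the highest value at 1.60 ± 0.159 (SD, n = 3; adjusted p = 5.04e-05), with 3 rows at 1.34, 1.56 and 1.89. Lcp2, which gathers signalling proteins in myeloid cells and T cells, rose by 0.66 ± 0.0451 and Blnk, its B cell and macrophage counterpart, by 0.55 ± 0.027. The exchange factor Sos2 fell by 0.55 and the docking protein Gab1 by 0.45. With exact 0 kept 3 rose and 0 fell: Blnk and Sos2 no longer passed (adjusted p = 0.147 and 0.0682), nor did Gab1, which moved to -0.22 (adjusted p = 0.0732).

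Among 14 genes of lipid signalling 5 were called higher (35.7%, beside 20.8% of all tested features) and 2 lower, with 3 higher without mouse 3. Prkcb, a protein kinase C of leukocytes, rose by 1.29 ± 0.0996 (SD, n = 3; adjusted p = 6e-05), and it moved to 0.43 with exact 0 kept, since its other 2 rows are at 0. Pld2, a phospholipase D, rose by 0.56 ± 0.229 and Itpr2, a calcium release channel, fell by 0.52 ± 0.15 as an average of rows at -0.15, -0.16, -0.55 and -1.21, of which the first pair did not pass singly (adjusted p = 0.134 and 0.0979). With exact 0 kept neither Pld2 nor Itpr2 passed (adjusted p = 0.12 and 0.0864). Akt2 was called lower at -0.84, but its rows stood at 0.29 and -1.97, both passing when tested singly, so its direction is not settled.

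Regulators of phagocytic actin rose in 9 of 21 and fell in 0, with 5 rises without mouse 3, 1 rise with exact 0 kept and 1 fall without mouse 1. Marcks, an actin-binding substrate of protein kinase C, rose by 1.29 ± 0.199 and Was, the leukocyte activator of actin branching, by 0.88 ± 0.159 (SD, n = 3). The leukocyte GTPase Rac2 rose by 0.61 ± 0.171. Coro1a, an actin regulator of leukocytes, rose by 1.22 ± 0.271, and moved to 0.59 with exact 0 kept, where it did not pass (adjusted p = 0.0836); nor did Was and Rac2 (adjusted p = 0.0516 and 0.0793).

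In the list of inhibitory receptors and phosphatases 12 of 20 rose and 3 fell (5 falls without mouse 1, and 6 rises and 0 falls with exact 0 kept). The list also held Pilrb1, at 1.13, which is an activating receptor that signals through Tyrobp. Clec4a2, an inhibitory lectin receptor of dendritic cells and macrophages, rose by 1.94 ± 0.307 and Lilrb4a, a receptor with inhibitory motifs, by 1.15 ± 0.0972 (SD, n = 3). Laptm5, a lysosomal regulator of leukocyte receptors, rose by 0.73 ± 0.0622. The leukocyte phosphatase Ptprc, which counts here as a phosphatase although it also activates Src family kinases, rose by 1.33 ± 0.124 and moved to 0.64 when rows with ratios on 2 arrays entered, because a further row was below 0; with exact 0 kept it was 0.30, short of passing (adjusted p = 0.0824). Ceacam1, an inhibitory receptor of epithelium and leukocytes, fell by 1.67 ± 0.535, and Inppl1, the close relative of Inpp5d, fell by 0.38 ± 0.151; neither passed with exact 0 kept (adjusted p = 0.0938 and 0.132).

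Receptors listed as signalling through Tyrobp or Fcer1g rose in 4 of 7, with a median of 0.94 (0.40 when ratios on 2 arrays sufficed and 0.12 with exact 0 kept) and 0 falls (1 without mouse 1). Pilrb1 was not in this list. Trem2, a Tyrobp-coupled receptor of macrophages, had log ratios of 2.23, 1.64 and 1.59 and a mean of 1.82 ± 0.357 (SD, n = 3; adjusted p = 0.000123), and it moved to 0.87 with exact 0 kept. Pira2, a receptor coupled to the gamma chain, rose by 1.24 ± 0.187 and the fungal lectin receptor Clec4n, coupled to the same chain, by 1.04 ± 0.119. Il3ra, whose receptor complex can use the gamma chain in basophils, rose by 0.94 ± 0.283 and moved to 0.54 with ratios on 2 arrays and to 0.45 with exact 0 kept, where it did not pass (adjusted p = 0.0804).

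Complement receptors and integrins of phagocytes rose in 2 of 5 and fell in 0, and 1 rose without mouse 2 or without mouse 3. Of all tested features 20.8% rose, and 5 genes are too few to set against that share. Itgb2, the beta chain of the leukocyte integrins, rose by 0.92 ± 0.225 (SD, n = 3; adjusted p = 0.000479). Cd93, a receptor of phagocytes and endothelium, rose by 0.25 ± 0.0786 and no longer passed without mouse 2 (adjusted p = 0.0898) or mouse 3 (adjusted p = 0.231); of its rows, 0.40 passed singly and 0.09 did not. With exact 0 kept neither Itgb2 nor Cd93 passed (adjusted p = 0.0683 and 0.0876). The integrin alpha chain Itgal was at -0.17 and the C5a receptor C5ar1 at 0.06, and neither passed.

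**Figure D4:**
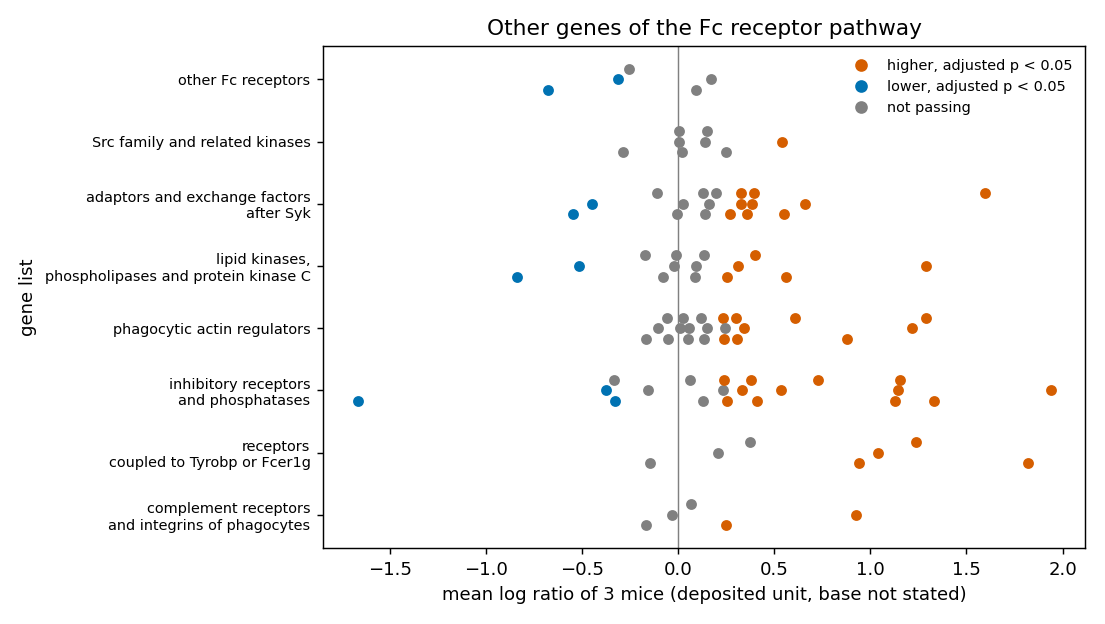
Mean log ratio over 3 mice (x axis, deposited unit) of each tested gene of 8 lists of the Fc receptor pathway (y axis), coloured by the limma call at an adjusted p of 0.05. The 42 genes that rose are most numerous in the lists of inhibitory receptors and phosphatases (12), adaptors (9) and actin regulators (9), and none is among the other Fc receptors. The list of inhibitory receptors and phosphatases holds the activating receptor Pilrb1.

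The named genes nearest to each member over the 3 centred log ratios were taken from 7206 others by Euclidean distance, which with 3 values per gene describes closeness and no more. Nearest to Fcgr1 were the complement subunit C1qb (distance 0.0798) and the immunoproteasome subunit Psmb8 (0.0823), with 25 genes within 0.25. For Fcgr3 they were the matrix protein Tnc (0.16) and the methyltransferase Nnmt (0.174), with 7 genes within 0.25. For Fcer1g they were the MHC class II chain H2-Aa (0.038) and the T cell coreceptor Cd8a (0.0383), with 48 within 0.25. Tyrobp lay nearest to the neuronal stathmin Stmn4 (0.0596) and the collagen Col15a1 (0.0641), with 81 within 0.25. Fcgr2b, near 0 as an average, had 1611 genes within 0.25, Pard6g and Fancl being the nearest.

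Across the whole table an array gave a ratio for 10998 to 11930 rows, and 26.7 to 32.4% of cells were an exact 0. Pearson's r between arrays over 9693 rows was 0.802 to 0.906, lowest between mice 1 and 2; all arrays share the control pool. No array was left out. Signal over background was not analysed here, and the number of arrays limits the precision.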

How the data were processed

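Whole-kidney RNA of 3 nephritic mice and 1 control pool was measured on 3 arrays of 2 colours. The authors deposited 1 log ratio per row and array; their scanner, normalization, logarithm base and direction are not stated in these sources. Replicate numbers are those in the labels. Gene symbols came from the platform annotation, brought to current symbols through a RefSeq table of GRCm38.p6: of 16281 rows, 13738 had 1 symbol (13694 of them in RefSeq), 52 several and 2491 none.

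Exact 0 was set to missing (3173 rows were 0 on all arrays), arrays were centred on their medians, rows lacking a ratio on any of 3 arrays were left out, and rows of a gene were averaged. limma 3.58.1 in R 4.3.3 (lmFit on an intercept, then eBayes; 2 residual and 4.85 prior degrees of freedom, the prior SD being 0.134) tested the ratio against 0, two-sided, with Benjamini-Hochberg adjustment over 8449 features. The pool is 1 control sample. Scripts were tested on simulated data. Named were all members, the 4 genes of each pathway list and 3 of each marker list with the smallest p, up to 2 called against their pathway list's main direction, and the 2 genes nearest to each tested member; list genes at 0 and further members were named after their values were seen. Members, lists, tests and promoter motifs were chosen with earlier results of these data known. Alternatives: exact 0 kept, no centring, array weights, a robust prior, an unmoderated test, arrays scaled to equal median absolute values, ratios required on 2 arrays only, single rows (a gene then counts only if all its rows pass), each mouse left out and, added after the data were seen, rows averaged before the filter on arrays.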

Additional observations from a re-analysis of the deposited data

How the results depend on the processing

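The 4 members that rose kept their direction in all alternatives run. With exact 0 kept, 549 features rose and 437 fell, against 1755 and 1883, and 2 members rose; among pathway genes 16 rose and 2 fell. By list, rises and falls were then: other Fc receptors 1 fall; adaptors 3 and 0; lipid signalling 2 and 1; actin regulators 1 rise; inhibitory genes 6 and 0; complement receptors 0 rises; macrophage markers 5 rises; neutrophil 2 and 0; mast cell 0 and 0; kidney 0 and 2. The unmoderated test called 0 features and 0 in each list and among the members. Src family kinases had 2 rises without centring, with scaling and with ratios on 2 arrays, and 4 with array weights. Neutrophil falls were 2 without centring, with single rows and with ratios on 2 arrays. With single rows, falls were 1 among other Fc receptors and 0 in lipid signalling, and complement receptors had 1 rise; Fcgr2b turned to 0.19 by row 13688 and Akt2 to 0.29 by row 15141. Platelet falls were 1 with ratios on 2 arrays. With array weights 17 pathway genes fell, with 5 inhibitory, 2 actin, 1 adaptor-coupled and 1 complement receptor among them, other Fc receptors had 1 rise, mast cell markers 2 rises and platelets 1 fall. The causes of these changes were not tested.

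Leaving out each mouse in turn gave 1096 to 2017 rises and 1106 to 2176 falls over all features (the lowest without mouse 3), 4 member rises each time, and 30 to 45 rises and 7 to 14 falls in the pathway lists. By list the ranges were: other Fc receptors 1 to 2 falls; Src family 1 to 2 rises, 0 to 1 falls; lipid signalling 3 to 5 rises; actin 5 to 10 rises, 0 to 1 falls; inhibitory 2 to 5 falls; adaptor-coupled 0 to 1 falls; complement 1 to 2 rises; neutrophil 1 to 3 falls; mast cell 1 to 2 rises, 1 to 2 falls; T and NK 2 to 5 rises; kidney 0 to 2 rises. Fcgr3 minus Fcgr2b stayed between 1.14 and 1.47. No paired analysis was possible because the labels give 1 group, with the control pool on every array.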
